A study of Mus musculus with 2 samples.

Results

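Tubulins are the building blocks of microtubules, and this account follows the 10 mouse genes for alpha and beta tubulin in heart cell cultures with and without an antagomir. The genes were chosen by symbol: the alpha tubulins Tuba1a, Tuba1b, Tuba1c and Tuba4a and the beta tubulins Tubb2a, Tubb2b, Tubb3, Tubb4b, Tubb5 and Tubb6. All 10 were in the table, among 10982 genes in all, and no further alpha or beta tubulin gene had a value in it. The first library came from cultures labelled as mouse neonatal cardiomyocytes in which the piRNA FERPIR was knocked down by an antagomir, a chemically modified antisense RNA. The other came from the same kind of culture transfected with a negative control. A treatment label reads PBS for both. The sources used here do not give strain, sex, dose, time after transfection or the number of hearts or cultures behind a library. The study asked how mRNA levels differed after the knockdown of this piRNA, a small RNA of the class bound by PIWI proteins. FERPIR itself has no value in the table, nearly all of whose genes have an annotated coding transcript.

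Alpha and beta tubulin pair into a dimer, and dimers add end to end and side by side into the hollow microtubule. The vertebrate isotypes are close in sequence over most of their length and differ mostly in the acidic tail at the C terminus, which faces outward and carries much of the chemical modification of microtubules. In heart muscle cells, microtubules carry cargo and add stiffness to the contracting cell, and tubulin whose terminal tyrosine has been removed is known to tie microtubules to the sarcomere. Tubulin mRNA is also under a feedback control in animal cells. When free dimer is plentiful, the factor TTC5 binds the opening residues of nascent tubulin on the ribosome and the mRNA is degraded.

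The coding starts are shown because the feedback control reads the residues they encode. They are the opening 30 coding bases of the GENCODE transcripts on build GRCm38, read 5′ to 3′ on the sense strand. Capitals mark the 4 codons of the recognised stretch.
Tuba1a: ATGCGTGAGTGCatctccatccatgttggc
Tuba1b: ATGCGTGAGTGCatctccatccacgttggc
Tuba1c: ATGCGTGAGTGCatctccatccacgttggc
Tuba4a: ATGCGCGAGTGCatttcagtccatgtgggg
Tubb2a: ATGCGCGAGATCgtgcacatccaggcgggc
Tubb2b: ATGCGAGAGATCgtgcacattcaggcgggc
Tubb3: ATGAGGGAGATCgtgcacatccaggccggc
Tubb4b: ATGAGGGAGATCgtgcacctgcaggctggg
Tubb5: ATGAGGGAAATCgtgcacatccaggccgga
The capitals come in 2 spellings among the 4 alpha genes and in 4 spellings among the 5 beta genes shown. The alpha genes share the fourth codon TGC and the beta genes the fourth codon ATC.

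Coding ends of 2 alpha and 5 beta genes are shown because they spell the tail in which the isotypes differ. They are the closing 60 coding bases of the same transcripts, with the last sense codon and the stop codon in capitals.
Tuba1c: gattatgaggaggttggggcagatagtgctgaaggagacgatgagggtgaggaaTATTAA
Tuba4a: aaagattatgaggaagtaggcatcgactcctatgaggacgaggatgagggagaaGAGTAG
Tubb2a: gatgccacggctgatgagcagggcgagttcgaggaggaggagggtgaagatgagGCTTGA
Tubb2b: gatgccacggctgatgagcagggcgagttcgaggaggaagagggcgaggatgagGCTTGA
Tubb3: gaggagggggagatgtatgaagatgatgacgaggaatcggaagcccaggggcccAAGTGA
Tubb4b: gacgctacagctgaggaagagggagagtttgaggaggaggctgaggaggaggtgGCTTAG
Tubb5: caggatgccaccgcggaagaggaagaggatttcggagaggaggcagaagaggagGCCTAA
Tuba1c ends in TAT, a codon of tyrosine, the residue that the vasohibin enzymes remove and that tubulin tyrosine ligase restores. Tuba4a ends in GAG, a glutamate codon, so its mRNA encodes an alpha tubulin that has no such tyrosine to begin with.

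Before the values, the cell type on the labels was set against its markers. Of 12 cardiomyocyte markers 2 had values. Tnnt2, cardiac troponin T, had 8.19 FPKM in the antagomir library and 1.48 FPKM in the negative control library, and Tnnc1, troponin C, had 18.9 FPKM in the antagomir library and 4.39 FPKM in the negative control library. Both were low beside the fibroblast gene Col3a1, with 249 FPKM in the antagomir library and 358 FPKM in the negative control library. Col3a1 was the highest of the 6 fibroblast markers with values, out of 10 looked for. The lowest of these had 1.66 FPKM in the antagomir library and 1.19 FPKM in the negative control library. Both troponin genes lay within the range of the fibroblast markers in each library. Most cardiomyocyte markers thus had no value to set beside the label. A missing value is not read as a level, since the table used here may hold a part of the genes.

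In the antagomir library 9 of the 10 tubulin genes had higher FPKM than in the negative control library, and the most abundant, Tuba1b, was the exception. FPKM scales fragments to transcript length and library total, so levels of different genes can be set side by side. There was 1 library per group, hence no replicate, no test and no error for any value below. The number of reads is unknown as well, and all differences describe these 2 libraries only. The log2 ratio used throughout is the antagomir over the negative control on the scale of log2(FPKM + 1), which understates the differences of low genes. The median log2 ratio of the 10 tubulins was 0.36, against -0.05 for the 10201 genes that reached 1 FPKM in either library. Above 0 were 9 of 10 tubulins, beside 46.0% of all these genes, and below 0 was 1, beside 54.0%. Abundant genes leaned the same way: of the 1094 genes with a mean of at least 50 FPKM, 59.1% were above 0, and their median was 0.13. In bulk RNA of mixed cells, fewer cells of a type and less RNA per cell cannot be told apart.

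**Figure D1:**
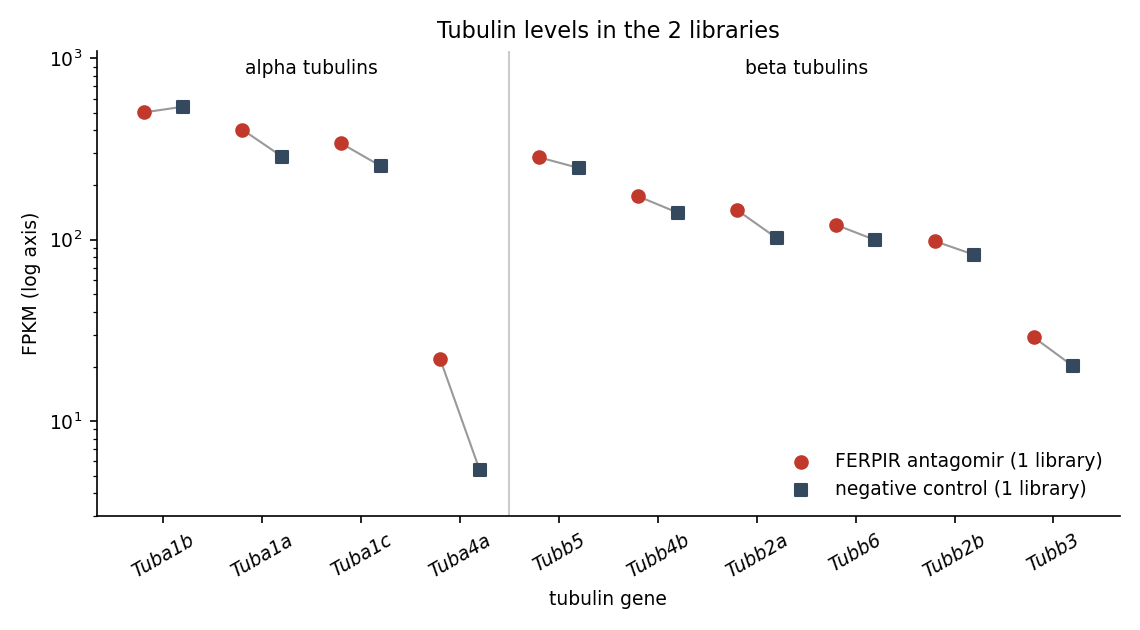
FPKM of each tubulin gene on a log axis, with the antagomir library as a circle and the negative control library as a square, 1 library each. The circle stands above the square for 9 genes and below it for Tuba1b (503 against 541 FPKM), and the widest gap is that of Tuba4a (21.9 against 5.35 FPKM).

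Most tubulin differences were small. At 1.5-fold, 1 of 10 tubulins was higher and 0 were lower, where 10.8% of all genes were that much higher and 13.4% that much lower. A count of 1 in 10 is near that background. The same gene, Tuba4a, was the 1 tubulin past 2-fold in the higher direction, beside 2.88% of all genes, and 0 were 2-fold lower, beside 3.79%. The other 8 tubulins with higher values lay between log2 ratios of 0.19 and 0.51. Of the 10 tubulins, 4 lay inside the middle range of all genes, from -0.36 at the 25th percentile to 0.29 at the 75th, and 6 lay above it.

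**Figure D2:**
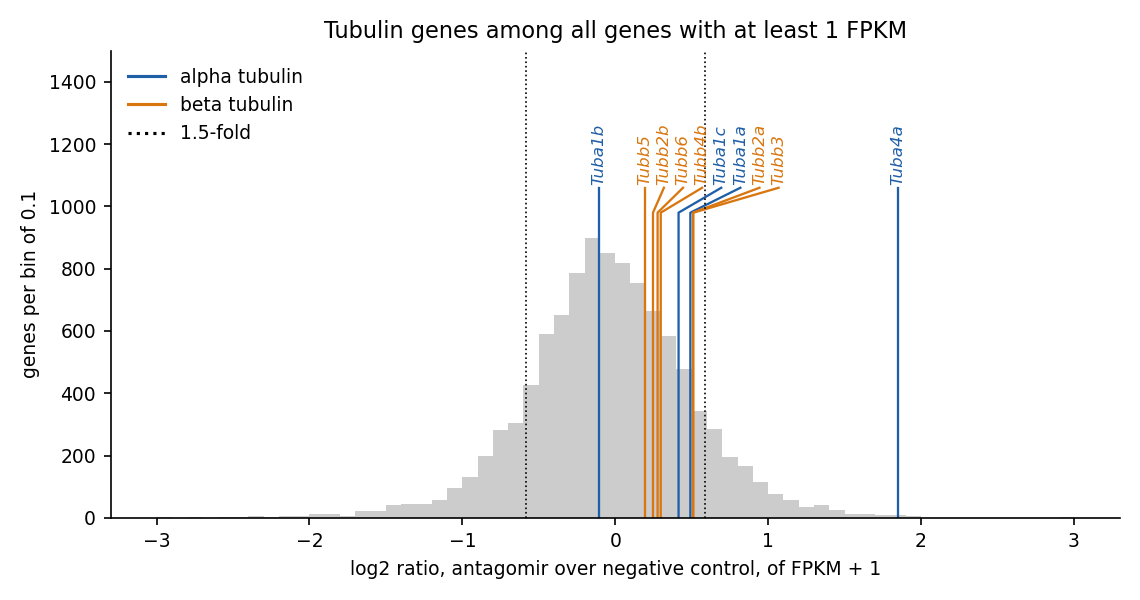
Histogram of the log2 ratio of 10201 genes in bins of 0.1, values beyond 3 in either direction being placed in the end bins, with each tubulin marked by a line and the 1.5-fold limits dotted. Tuba1b lies near the centre at -0.11, 8 tubulins stand between 0.19 and 0.51, and Tuba4a stands apart at 1.85.

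Among the alpha tubulins, the 3 genes of the Tuba1 group held nearly all of the level. They lie close together on chromosome 15, Tuba1b from 98931425 to 98934565 and Tuba1a from 98949841 to 98953551 on the minus strand, and Tuba1c from 99029891 to 99038105 on the plus strand, in the coordinates of the deposited table on build GRCm38. Tuba1b, a widely expressed alpha tubulin, had 503 FPKM in the antagomir library and 541 FPKM in the negative control library, a log2 ratio of -0.11. Its place among all genes, at percentile 45.1, was close to the middle. Tuba1a, the main alpha tubulin of young neurons and also found in many other cells, had 404 FPKM in the antagomir library and 287 FPKM in the negative control library, a log2 ratio of 0.49 at percentile 86.0. Tuba1c had 339 FPKM in the antagomir library and 254 FPKM in the negative control library, a log2 ratio of 0.41 at percentile 82.5. The neighbours on this stretch of chromosome 15 thus pointed in different directions, Tuba1b slightly lower and Tuba1a and Tuba1c higher.

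The 3 genes share so much sequence that a read may not tell them apart. Their coding sequences are 98.3% identical between Tuba1a and Tuba1b, 97.1% between Tuba1a and Tuba1c and 97.9% between Tuba1b and Tuba1c. Of all stretches of 100 bases in the Tuba1b transcript, 27.0% are found in no other annotated gene, and within its coding sequence 9.07%. The share is 34.2% for Tuba1a and 46.6% for Tuba1c. The sources used here give neither the read length nor the handling of reads with several matches, so the split among the 3 genes is uncertain in both libraries. A predicted gene, Gm49450, also shares 22.7% of the exon bases of Tuba1b and 26.2% of those of Tuba1a, and has no value in the table used here. The sum of the 3 depends less on that split than the single values do. It still moves with it, since FPKM divides by transcript lengths that differ, 1743 bases for Tuba1b, 1803 for Tuba1a and 1982 for Tuba1c, and with reads dropped, counted more than once or shared with Gm49450 or pseudogenes. The sum was 1246 FPKM in the antagomir library and 1083 FPKM in the negative control library, a ratio of 1.15.

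**Figure D3:**
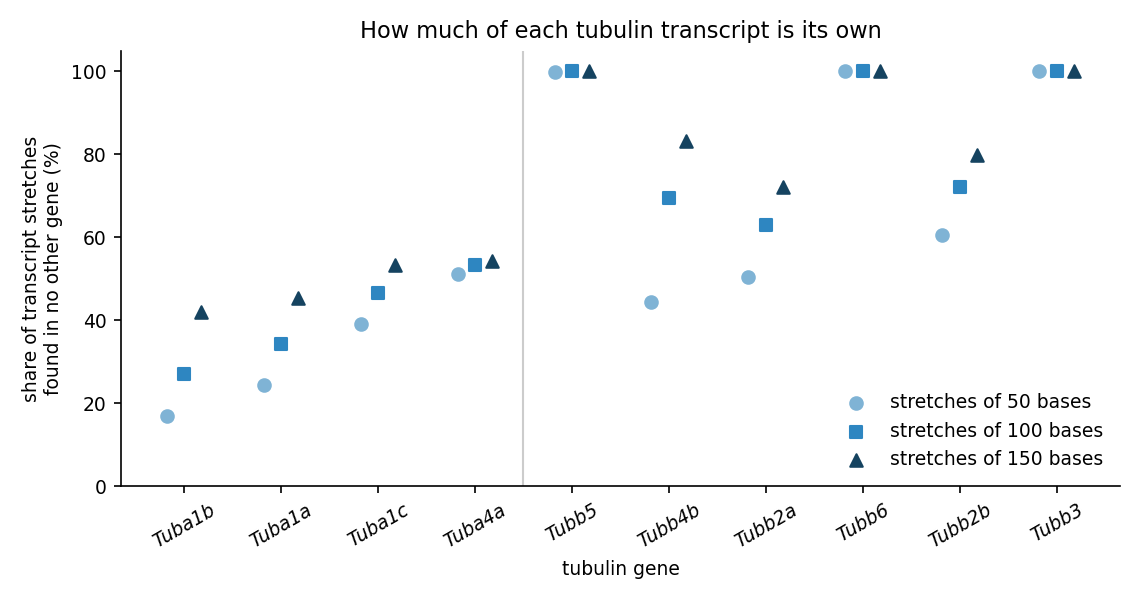
Share of stretches of 50, 100 and 150 bases of each tubulin transcript that occur in no other gene of the GENCODE transcripts on either strand. At 100 bases the shares of Tuba1b, Tuba1a and Tuba1c are 27.0%, 34.2% and 46.6%, and Tubb3, Tubb5 and Tubb6 reach 100%.

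Tuba4a, whose coding end shown above lacks a tyrosine codon, had the highest log2 ratio of the 10 and the lowest level. It is on chromosome 1 from 75214228 to 75219865 on the minus strand. It had 21.9 FPKM in the antagomir library and 5.35 FPKM in the negative control library, 4.10-fold as a plain ratio and 3.61-fold on the scale with 1 added, at percentile 99.8 of all genes. Its 3′ untranslated region, 1394 bases in the transcript used here, is overlapped from the opposite strand by exons of the kinase gene Stk16. In all, 37.3% of the exon bases of Tuba4a lie in Stk16 exons. Stk16 had 12.0 FPKM in the antagomir library and 8.44 FPKM in the negative control library, a log2 ratio of 0.46. Without knowledge of whether strand was used, reads of the overlap cannot be told apart. The coding sequence of Tuba4a lies outside the overlap, and 100% of its stretches of 100 bases are found in no other gene. Reads over coding and untranslated parts are not separated in the table.

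All 6 beta tubulins had higher FPKM in the antagomir library, with log2 ratios from 0.19 to 0.51 and a median of 0.29. Tubb5, the main beta tubulin of proliferating cells, was the most abundant of them, with 284 FPKM in the antagomir library and 249 FPKM in the negative control library, a log2 ratio of 0.19. It lies on chromosome 17 from 35833921 to 35838306. Tubb4b, a broadly expressed beta tubulin also used in cilia, had 174 FPKM in the antagomir library and 141 FPKM in the negative control library, a log2 ratio of 0.30. Tubb4b, on chromosome 2 from 25222160 to 25224702, has annotated pseudogenes, and Tubb4b-ps1 matches 27.4% of its stretches of 100 bases.

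The neighbours Tubb2a and Tubb2b, both on the minus strand of chromosome 13, are a recent duplicate pair with coding sequences that are 96.5% identical. Tubb2a, from 34074274 to 34078007, had 146 FPKM in the antagomir library and 102 FPKM in the negative control library, a log2 ratio of 0.51. Tubb2b, from 34126748 to 34130466 and best known from developing neurons, had 98.2 FPKM in the antagomir library and 82.6 FPKM in the negative control library, a log2 ratio of 0.25. The gap between the pair is uncertain, since 35.9% of the stretches of 100 bases in Tubb2a also occur in Tubb2b. Their sum was 244 FPKM in the antagomir library and 185 FPKM in the negative control library, a ratio of 1.32.

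Tubb3, Tubb5 and Tubb6 are the 3 tubulins in which every stretch of 100 bases is their own, and all 3 had higher FPKM in the antagomir library. Tubb3, the class III beta tubulin widely used as a neuronal marker, had 29.0 FPKM in the antagomir library and 20.1 FPKM in the negative control library, a log2 ratio of 0.51 at percentile 86.8. It lies on chromosome 8 from 123411424 to 123422015. Tubb6, an isotype that rises in injured and regenerating muscle, had 121 FPKM in the antagomir library and 99.5 FPKM in the negative control library, a log2 ratio of 0.28 at percentile 74.2. It lies on chromosome 18 from 67390717 to 67402748.

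The order of the 10 levels was the same in both libraries: Tuba1b, Tuba1a, Tuba1c, Tubb5, Tubb4b, Tubb2a, Tubb6, Tubb2b, Tubb3 and Tuba4a from highest to lowest. With no replicate, no spread is at hand to say which neighbours in this order differ. In the antagomir library, Tuba1c and Tubb5 had 339 and 284 FPKM, and Tubb2a and Tubb6 had 146 and 121 FPKM. In the negative control library these pairs stood closer together, at 254 and 249 FPKM and at 102 and 99.5 FPKM.

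Summed over all 10 genes, tubulin mRNA stood at 2120 FPKM in the antagomir library and 1782 FPKM in the negative control library, a ratio of 1.19. That is 0.678% of all FPKM in the table in the antagomir library and 0.603% in the negative control library. Alpha tubulins summed to 1268 FPKM in the antagomir library and 1088 FPKM in the negative control library, a ratio of 1.17. Beta tubulins summed to 852 FPKM in the antagomir library and 694 FPKM in the negative control library, a ratio of 1.23. Both classes were thus higher by a similar factor. Without Tuba1b the other 9 genes summed to 1617 FPKM in the antagomir library and 1241 FPKM in the negative control library, a ratio of 1.30.

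The make-up of the pool differed most at Tuba1b. Its share of the summed FPKM was 23.7% in the antagomir library and 30.4% in the negative control library, a difference of -6.66 percentage points. The share of Tuba1a was 19.1% in the antagomir library and 16.1% in the negative control library, and that of Tuba1c was 16.0% in the antagomir library and 14.3% in the negative control library. Both close relatives of Tuba1b thus held larger shares in the antagomir library. The next widest difference was 1.14 percentage points, at Tubb2a. Within the alpha class, Tuba1b made up 39.6% in the antagomir library and 49.7% in the negative control library, and Tuba1a 31.9% in the antagomir library and 26.4% in the negative control library. Tuba4a made up 1.73% of the alpha class in the antagomir library and 0.492% in the negative control library. Within the beta class, Tubb5 made up 33.4% in the antagomir library and 35.8% in the negative control library, and Tubb2a 17.1% in the antagomir library and 14.7% in the negative control library.

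Alpha and beta tubulin stood in a similar balance in both libraries. The ratio of alpha to beta FPKM was 1.49 in the antagomir library and 1.57 in the negative control library. Shares do not change with a scale common to a whole library, but the split within the Tuba1 group enters each of them. Taken as 1 unit, Tuba1a, Tuba1b and Tuba1c held 58.8% of the pool in the antagomir library and 60.8% in the negative control library. The effective number of isotypes, the inverse of the summed squared shares, was 6.52 in the antagomir library and 5.78 in the negative control library.

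**Figure D4:**
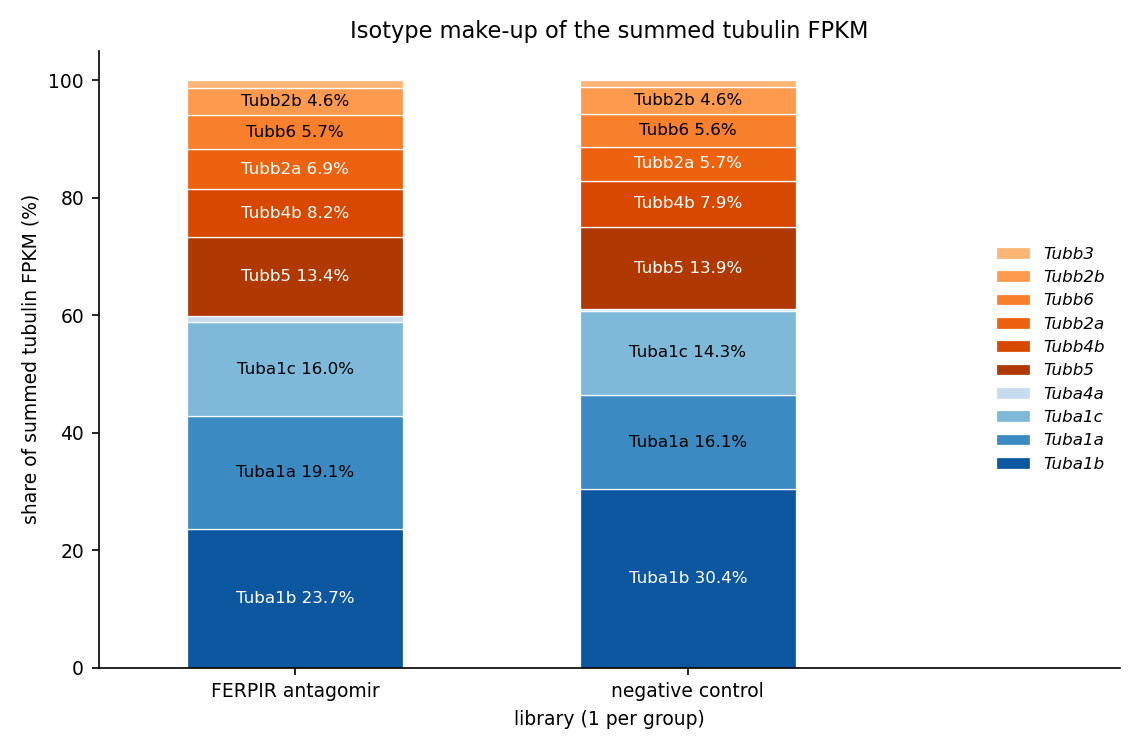
Stacked bars of each gene's share of the summed tubulin FPKM, with the antagomir library on the left and the negative control library on the right, alpha tubulins in blue and beta tubulins in orange. Tuba1b takes 23.7% in the antagomir library and 30.4% in the negative control library, and Tuba1a and Tuba1c take more in the antagomir library.

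Other tubulins sit at the ends and centres of microtubules. Of 10 such genes and rare isotypes looked for, 3 had values. None was 1.5-fold apart, where 10.8% of all genes were that much higher and 13.4% that much lower. All 3 were above 0, beside 46.0% of all genes. Tubg1, the gamma tubulin from which microtubules grow, had 27.8 FPKM in the antagomir library and 22.5 FPKM in the negative control library, a log2 ratio of 0.30. Tubd1 and Tube1, the delta and epsilon tubulins of centrioles, had 2.39 and 1.27 FPKM in the antagomir library and 1.73 and 0.804 FPKM in the negative control library.

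Genes that fold tubulin were mostly a little higher in the antagomir library. New tubulin passes from prefoldin to the CCT chaperonin and then to the cofactors TBCA to TBCE, which join alpha and beta into the dimer. Of 26 genes of folding and feedback control, 25 reached 1 FPKM. Their median log2 ratio was 0.23 and 18 were above 0, beside 46.0% of all genes. At 1.5-fold 2 were higher, near the 10.8% of all genes, and 0 lower, beside 13.4%. Tbca, the cofactor that holds beta tubulin, had 217 FPKM in the antagomir library and 135 FPKM in the negative control library, 1.60-fold higher. Tbcc, which triggers GTP hydrolysis in the finished dimer, had 82.0 FPKM in the antagomir library and 50.5 FPKM in the negative control library, 1.61-fold higher. Tbcb, which holds alpha tubulin, had 37.9 FPKM in the antagomir library and 47.8 FPKM in the negative control library, a log2 ratio of -0.32, with 22.5% of its exon bases in another gene. Ttc5, whose product reads the coding starts printed above, had 16.3 FPKM in the antagomir library and 10.6 FPKM in the negative control library, a log2 ratio of 0.57. Its partner gene Scaper, with 1.70 FPKM in the antagomir library and 1.75 FPKM in the negative control library, had a log2 ratio of -0.03.

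The 18 genes of tubulin modification that reached 1 FPKM had a median of 0.10 on this scale, with 2 at least 1.5-fold higher, near the 10.8% of all genes, and 0 lower, beside 13.4%. Tpgs1, a subunit of the tubulin polyglutamylase that adds glutamate chains to the tails, had 80.0 FPKM in the antagomir library and 36.5 FPKM in the negative control library, 2.16-fold higher. Its catalytic partner Ttll1 had 12.7 FPKM in the antagomir library and 12.8 FPKM in the negative control library, and the subunit genes Nicn1 and Lrrc49 had log2 ratios of -0.01 and 0.09. Of the enzymes that act on the terminal tyrosine, the ligase gene Ttl had 4.90 FPKM in the antagomir library and 4.01 FPKM in the negative control library. The vasohibin gene Vash1, the other gene past 1.5-fold, had 1.49 FPKM in the antagomir library and 0.417 FPKM in the negative control library, and Vash2 had 4.53 FPKM in the antagomir library and 3.65 FPKM in the negative control library. Svbp, the vasohibin partner, had 6.75 FPKM in the antagomir library and 7.78 FPKM in the negative control library. Sirt2, a tubulin deacetylase, had 5.66 FPKM in the antagomir library and 8.43 FPKM in the negative control library, a log2 ratio of -0.50.

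Genes of microtubule nucleation, the gamma-tubulin ring complex and the augmin subunits that branch new microtubules, numbered 20 with a median of 0.12. Of these, 4 were at least 1.5-fold higher, beside 10.8% of all genes, and 1 lower, beside 13.4%. The higher ones were the augmin genes Haus1 (61.0 FPKM in the antagomir library, 35.5 FPKM in the negative control library), Haus4 (31.1 FPKM in the antagomir library, 19.5 FPKM in the negative control library) and Haus8 (4.89 FPKM in the antagomir library, 2.61 FPKM in the negative control library) and the ring complex gene Mzt2 (36.0 FPKM in the antagomir library, 22.5 FPKM in the negative control library). Akap9, a large scaffold of the Golgi and centrosome, was the lower one, with 1.58 FPKM in the antagomir library and 3.42 FPKM in the negative control library. The ring complex genes Tubgcp2, Tubgcp3 and Mzt1 had log2 ratios of -0.08, -0.07 and -0.25.

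Proteins that coat the microtubule or ride its growing end pointed the other way, with a median of -0.23 for the log2 ratios of 27 genes. Of these, 18 were below 0, where 54.0% of all genes were, 3 stood 1.5-fold or more lower and 2 as much higher, near the 13.4% and 10.8% of all genes. Map1b, a neuronal microtubule-associated protein, had 6.91 FPKM in the antagomir library and 14.5 FPKM in the negative control library, 1.96-fold lower. Slain2, which promotes growth at the plus end, was 1.70-fold lower, and Dctn1, the dynactin subunit that links dynein to microtubules, was 1.63-fold lower. Ckap2, a mitotic spindle protein, had 24.1 FPKM in the antagomir library and 12.7 FPKM in the negative control library, 1.83-fold higher, and Mapre2 was the other higher gene at 2.12 FPKM in the antagomir library and 0.714 FPKM in the negative control library. Map4, the main microtubule-associated protein of heart muscle, had 9.44 FPKM in the antagomir library and 8.57 FPKM in the negative control library, a log2 ratio of 0.13.

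The list of microtubule destabilisers and severing enzymes held 13 genes that reached 1 FPKM, and the median of their log2 ratios was 0.33. Of these, 3 were past 1.5-fold higher, beside 10.8% of all genes, and 1 lower, beside 13.4%. Kif2c, the mitotic depolymerase, had 15.0 FPKM in the antagomir library and 8.79 FPKM in the negative control library, 1.64-fold higher. The AAA ATPase gene Fignl1 and the kinesin gene Kif18b were 1.63-fold and 1.57-fold higher. Stmn4, a stathmin of neurons that binds free dimers, had 2.19 FPKM in the antagomir library and 5.62 FPKM in the negative control library, 2.08-fold lower. Stmn1, the abundant stathmin of dividing cells, had 169 FPKM in the antagomir library and 134 FPKM in the negative control library, a log2 ratio of 0.33.

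**Figure D5:**
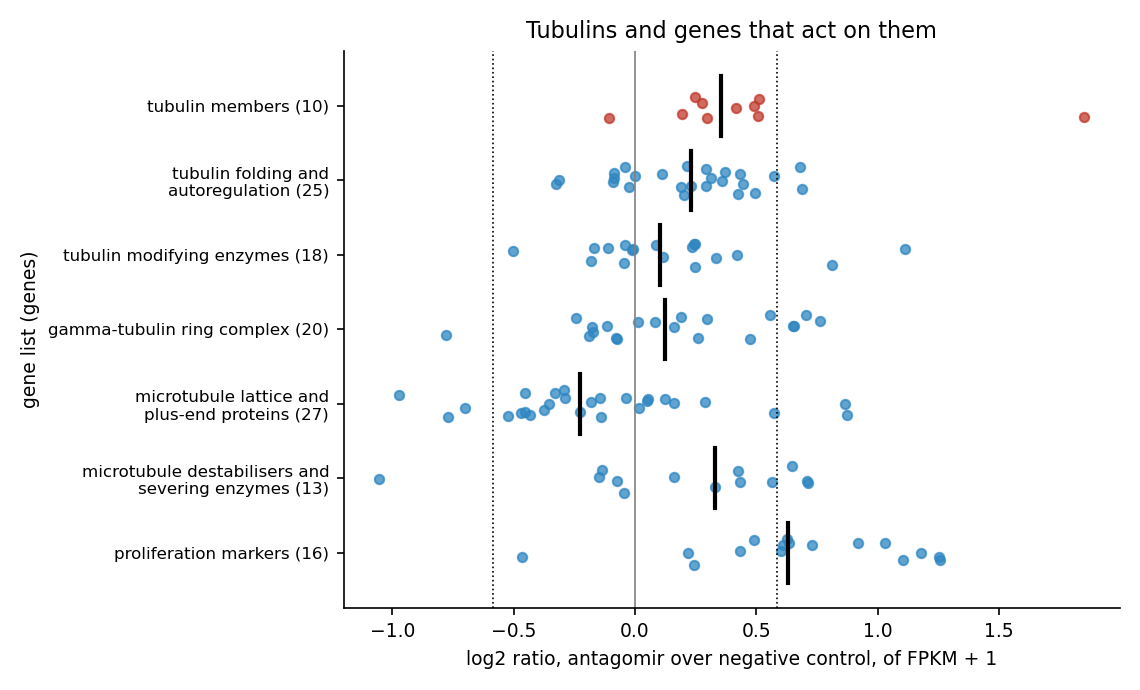
Log2 ratio of each gene that reached 1 FPKM in the tubulin group, in 5 groups of genes that act on tubulin and in the proliferation markers, with the group median as a black bar and the 1.5-fold limits dotted. Medians run from -0.23 for the lattice and plus-end proteins to 0.36 for the tubulins and 0.63 for the proliferation markers.

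Markers of cell division and of cell types differed between the libraries beside the tubulins. The 2 cardiomyocyte markers with values were both past 2-fold higher in the antagomir library, beside 2.88% of all genes. Tnnt2 was 3.71-fold and Tnnc1 3.69-fold higher, both at the low levels given above. All 16 proliferation markers had values. Of these, 15 were above 0, beside 46.0% of all genes, and 11 at least 1.5-fold higher, beside 10.8%. Their FPKM summed to 827 in the antagomir library and 502 in the negative control library. The 1 below 0 was Mcm2, with 20.7 FPKM in the antagomir library and 29.0 FPKM in the negative control library. Of 10 fibroblast markers 6 had values, with sums of 341 FPKM in the antagomir library and 548 FPKM in the negative control library, and 3 were at least 1.5-fold lower, beside 13.4% of all genes. Of 9 smooth muscle and pericyte markers 7 had values, summing to 1321 FPKM in the antagomir library and 1680 FPKM in the negative control library. The lower sum came from Acta2, with 845 FPKM in the antagomir library and 1305 FPKM in the negative control library. The median log2 ratio of the 6 that reached 1 FPKM was 0.39, with 4 above 0, beside 46.0% of all genes. At 1.5-fold 1 was higher and 1 lower, beside 10.8% and 13.4% of all genes. Those above 0 included Des at 0.29, Notch3 at 0.51 and Tagln. Tagln was 2.02-fold higher, with at least 62.4% of its exon bases in other genes. Of 19 neuron and glia markers 6 had values, summing to 61.9 FPKM in the antagomir library and 53.0 FPKM in the negative control library. The higher sum came from Nefl, with 31.8 FPKM in the antagomir library and 16.9 FPKM in the negative control library. Of the exon bases of Nefl, 32.8% lie in Nefm. Stmn2 was 1.48-fold higher, Ncam1 1.81-fold lower and Gap43 1.49-fold lower. The 5 neuron and glia markers that reached 1 FPKM had a median log2 ratio of 0.48. Above 0 were 3 and below 0 were 2, beside 46.0% and 54.0% of all genes. At 1.5-fold 1 was higher and 1 lower, beside 10.8% and 13.4%. Of 8 macrophage and blood markers 2 had values, summing to 16.0 FPKM in the antagomir library and 13.5 FPKM in the negative control library, and of 8 endothelial markers 0 had a value. No marker with a value was listed at 0 in either library. The part of cell division and of cell make-up in the tubulin differences was not tested.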

How the data were processed

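RNA sequencing of 2 libraries was used, 1 from FERPIR antagomir cultures and 1 from negative control cultures, grouped by sample title. Per the labels' protocols, TRIzol RNA was selected for poly(A) tails and made into libraries with a stranded kit. The deposited FPKM values are the authors' own. The submitters' processing notes name cutadapt, HISAT2, StringTie 1.3.3 and GRCm38, and the sources used here give no settings, annotation or strand use. FPKM depends on the library total, so more of a few abundant mRNAs lowers all others.

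The table held 10992 lines, and 10 repeated symbols were summed. In each line the higher value was above 0.5. FPKM summed to 312806 in the antagomir and 295404 in the negative control library. Whole-read steps were looked for in the FPKM of low genes times their length. The best score was 0.0469 in the antagomir and 0.0556 in the negative control library, where 1 would mean whole reads throughout, so the depth is unknown.

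Log2 ratios used a pseudocount of 1 FPKM and genes that reached 1 FPKM. Sequences, transcript lengths and exon overlaps were read from GENCODE release M21 (GRCm38), and coding identity from global alignment. Some coding ends are not reported here. All 10 tubulins are named. In each other list the rule marked the 3 genes at either end that reached 5 FPKM, plus any at least 2-fold apart. Not all marked genes are given. Left out are Tbcel, Vbp1, Ttll12, Nedd1, Tpx2, Clip2, Gtse1 and Katna1. So are the markers Ddr2, Col1a1, Col1a2, Dcn, Pdgfrb, Hba-a1, Mcm3, Mki67, Bub1b, Cdk1, Cdc20, Birc5 and Tk1. Tubd1, Tube1, Scaper, Ttl, Vash1, Vash2, Lrrc49, Haus8, Akap9, Tubgcp3, Mapre2, Map4 and Stmn1 are outside the rule. The dynein genes Dynlt1b, Dynlt1c, Dynlt1f, Dynlt3 and Dynlrb1 are outside it as well. All genes outside the rule were chosen after their values were seen. Members and lists were chosen with earlier results of these data known. The code was tested on made-up values with known differences. Python 3.11.15, pandas 2.3.3, numpy 2.4.6, Biopython 1.88 and matplotlib 3.10.9 were used. Alternatives were other pseudocounts and minimums, 3 rescalings, a correction for length and GC content, and other sets of tubulins.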

Additional observations from a re-analysis of the deposited data

How the results depend on the processing

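No paired analysis was possible because there is 1 library per group, and for the same reason no replicate could be left out. Across 6 alternatives for each of the 10 tubulins, 60 values in all, none changed sign. For many of these values the sign was fixed beforehand. A pseudocount cannot change a sign. Centring raised every ratio, so it could not turn the 9 higher genes. Tuba1b ranged from -0.24 to -0.06 and Tuba4a from 1.80 to 2.03 on the log2 scale. Tubb5, the least different of the higher genes, ranged from 0.11 to 0.24. Corrected for transcript length and GC content, Tubb4b was at 0.14 and Tubb6 at 0.13. The summed log2 ratio of all 10 ranged from 0.17 as TPM to 0.30 after centring. Rescaling to TPM put 1071 of all genes at least 1.5-fold higher and 2037 lower, against 1104 and 1364 as deposited. TPM values are larger here than FPKM, so the pseudocount of 1 weighed less. The effects of scale and pseudocount are thus not separated in the values given as TPM. A pseudocount of 0.1 FPKM alone put 1440 higher and 1782 lower. The median log2 ratio ranged from -0.01 at a minimum of 5 FPKM to 0.22 for modification genes, from 0.06 as TPM to 0.39 at that minimum for nucleation genes, and from -0.36 as TPM to -0.11 corrected for length and GC content for lattice and plus-end proteins. It ranged from 0.15 to 0.28 for folding genes, 0.24 to 0.38 for destabilisers, 0.27 to 0.46 for the other tubulin genes and 0.27 to 0.40 for the 10 tubulins. Without Tuba4a, 0 tubulins were 1.5-fold higher. Without Tuba1a, Tuba1c and Tubb2b the pool is smaller by construction, and shares in the antagomir and negative control libraries were 39.3% and 46.7% for Tuba1b, 1.72% and 0.462% for Tuba4a, 11.4% and 8.83% for Tubb2a, 2.27% and 1.73% for Tubb3, 13.6% and 12.2% for Tubb4b, 22.3% and 21.5% for Tubb5 and 9.45% and 8.60% for Tubb6. With depth unknown, no counting error can be given.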

Other observations

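Dynein is the motor that walks toward the minus end of microtubules, and dynactin is its activator. In a list of 29 subunits and adaptors drawn up after the data had been seen, 27 had at least 1 FPKM, with a median log2 ratio of 0.14, and 4 were at least 1.5-fold higher and 4 lower, both near the 10.8% and 13.4% of all genes. Dync1h1, the heavy chain that holds the motor domain, had 8.30 FPKM in the antagomir library and 17.6 FPKM in the negative control library, 2.01-fold lower. Dync1li1, a light intermediate chain, had 18.8 FPKM in the antagomir library and 38.5 FPKM in the negative control library, 2.00-fold lower. The other lower ones were Ndel1, a dynein regulator, at 1.65-fold, and Dctn1 at 1.63-fold. The light chain genes differed among themselves. Dynll2 had 38.9 FPKM in the antagomir library and 15.6 FPKM in the negative control library, 2.41-fold higher, and Dynll1 had 43.5 FPKM in the antagomir library and 27.0 FPKM in the negative control library, 1.59-fold higher. Dynlt1c was 1.53-fold higher, Dynlt1b was at a log2 ratio of 0.16 and Dynlt1f at -0.50, but these are near-identical copies whose reads may not be told apart. Dynlrb1 had 132 FPKM in the antagomir library and 174 FPKM in the negative control library, a log2 ratio of -0.40, and Dynlt3 was at 0.14. Pafah1b1, which encodes the dynein regulator LIS1, was 1.83-fold higher.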
